A study of Coprinopsis cinerea with 4 samples.

Results

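RNA sequencing compared oidia with hyphae of the mushroom Coprinopsis cinerea, strain okayama7#130, and the genes described here are those with 16- to 64-fold higher normalized counts in oidia. There were 2 libraries of oidia and 2 of hyphae, from RNA that had passed 2 rounds of poly(A) selection, and the labels give no treatment or engineered allele for either stage. The oidia libraries came from a SOLiD kit and the hyphal ones from an Illumina kit, and with this design the effect of stage and that of kit cannot be told apart. Nothing in the labels says that replicates came from separate cultures, so the spread between them may be technical.

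The members were selected by their counts. The 4 count columns were divided by median-of-ratios size factors over the gene rows. A member had at least 100 reads in both oidia libraries, and its mean normalized count in oidia was at least 16 times and under 64 times that in hyphae. The rule found 205 of 13342 genes, which is 5.56% of the 3684 genes that met the minimum of 100 oidia reads. All counts of all 4 libraries entered the rule, so the levels and folds of the members are given as a description, with no test. The sources used here gave no gene a product name, and genes are therefore given by locus identifier.

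Oidia are asexual spores that C. cinerea forms in large numbers on aerial structures of its mycelium. They are single cells that detach, spread and germinate into new hyphae. Hyphae are filaments that grow at their tips, branch, and take up nutrients from the substrate. In bulk RNA, fewer cells that hold a transcript and less transcript per cell cannot be told apart. The stage labels could not be checked against marker genes, because no gene name was at hand.

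Gene reads numbered 7519091 and 6128727 in oidia replicates 1 and 2, against 4586306 and 3546635 in hyphae replicates 1 and 2. The size factors were 0.841 and 0.679 for oidia and 1.56 and 1.16 for hyphae, so oidia had more gene reads but smaller factors. Replicates differed by more than sampling noise, with a chi-square per degree of freedom of 3.63 in oidia over 8011 genes and 1.28 in hyphae over 9555 genes. Over the members alone it was 17.5 in oidia, where their counts are high, and 1.05 in hyphae over the 190 with enough reads. For the same relative difference this measure grows with the count, so abundant members weigh most in it. The most abundant, CC1G_03676, had 173169 and 164982 reads in oidia, and the part of single members in the 17.5 is not given. The median absolute log2 difference between the oidia libraries was 0.0809 over the 205 members.

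The members took a large share of the oidia reads. They held 13.3% and 13.8% of the gene reads of the oidia libraries, against 1.45% and 1.44% of those of the hyphal libraries. The mean share was 13.5% ± 0.375 in oidia, against 1.45% ± 0.00525 in hyphae (SD, n = 2 libraries each). These shares are of total reads and use no size factor. The rule chose the members for oidia counts far above hyphal ones in the same libraries, so nothing is read from this contrast. Reads were concentrated in few members, and the 4 most abundant in oidia held 50% of the oidia reads and 48.5% of the hyphal reads of all members. The 10 most abundant held 59.9% of the members' oidia reads and 56.8% of their hyphal reads.

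**Figure D1:**
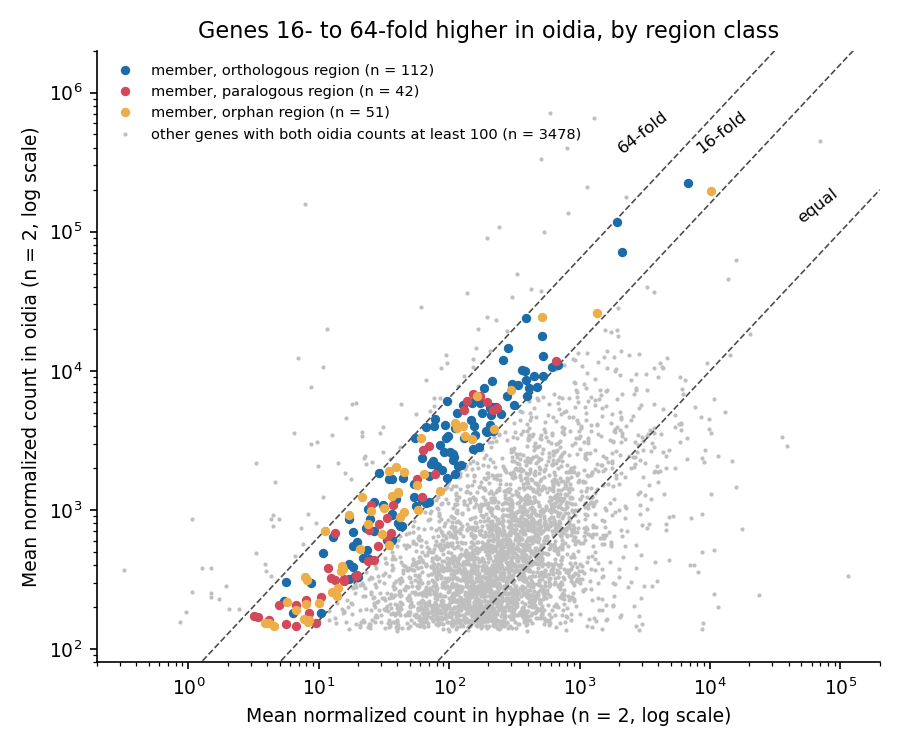
Mean normalized counts (counts divided by the size factor) of genes with at least 100 reads in both oidia libraries, in oidia (y axis) and hyphae (x axis), both on log scales, each point a gene and a mean of 2 libraries. The 205 members are coloured by region class and lie between the 16-fold and 64-fold lines by construction. They extend from 145 to 224429 in oidia and from 3.21 to 10196 in hyphae.

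The levels of the members spanned over 3 orders of magnitude in both stages. The mean normalized count in oidia ranged from 145 to 224429 with a median of 1513, and in hyphae from 3.21 to 10196 with a median of 54.0. Over all 13342 genes the medians were 29.8 in oidia and 41.7 in hyphae. Among genes that met the same oidia minimum, the median was 446 in oidia and 241 in hyphae. A typical member was thus above the typical gene of that group in oidia and below it in hyphae. By rank of mean normalized count among all genes, the median member stood at position 652 in oidia and at position 6136 in hyphae. Of the 205 members, 21 were among the 100 most abundant genes of oidia and 2 among the 100 most abundant genes of hyphae. Among the 1000 most abundant genes the numbers were 124 in oidia and 8 in hyphae. The rule chose members for oidia counts far above hyphal ones, so nothing is read from these contrasts between the stages.

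The fold range was filled unevenly. The ratio of oidia to hyphae was 16- to 32-fold for 129 members and 32- to 64-fold for 76. The median ratio was 26.4, with quartiles of 19.8 and 38.2. Every member had its lower oidia library above its higher hyphal library in normalized counts. Of all 13342 genes 33.5% did so, and nothing is read from the members' count, since the rule chose them for it. All 205 also passed edgeR's quasi-likelihood test as higher in oidia at a Benjamini-Hochberg adjusted p under 0.05, as did 37.8% of the 9866 genes tested. Since the rule used this contrast, that count is no support either. The authors' deposited table has an adjusted p under 0.05 for the 205 members too, and for 26.7% of 12861 genes as higher in oidia.

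CC1G_03676 had the highest oidia count. Its normalized counts were 205964 and 242894 in the oidia libraries, against 6726 and 6835 in the hyphal libraries, a ratio of 33.1. Both hyphal values were close to each other, and the groups lay far apart. It was the sixth gene of all in oidia, at 2.5% of gene reads, and position 42 in hyphae, at 0.227%. Its coding span is listed as an orthologous region on chromosome 1 from 2005586 to 2006612 (positions are those of the authors' table; no source used here names its build).

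CC1G_12348 came next and had the highest hyphal level of the members. It had 189075 and 203790 normalized counts in oidia, against 10010 and 10382 in hyphae, a ratio of 19.3. It stood at position 8 in oidia and position 21 in hyphae, so it was abundant in both stages. It lies in an orphan region on chromosome 10 from 1397332 to 1399622. The next gene on that chromosome, CC1G_12349, was at 6341 in oidia and 76.5 in hyphae, with an edgeR log2 fold change of 6.36 (oidia over hyphae).

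CC1G_01666 had 116438 and 119142 normalized counts in oidia, against 1802 and 2051 in hyphae, a ratio of 61.1. The oidia libraries were close, and hyphae replicate 2 was somewhat higher than replicate 1. Its region is orthologous, on chromosome 1 from 2243633 to 2245921. CC1G_06894 had 69918 and 72698 in oidia, against 2160 and 2054 in hyphae, a ratio of 33.8, in an orthologous region on chromosome 3 from 2451192 to 2453419. These 4 genes lay well above the next member in oidia. Their log2 fold changes in the edgeR fit (oidia over hyphae) were 5.01 ± 0.0671 for CC1G_03676, 4.23 ± 0.0645 for CC1G_12348, 5.90 ± 0.0706 for CC1G_01666 and 5.04 ± 0.0677 for CC1G_06894 (± approximate SE).

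CC1G_02260 had 25824 and 26194 normalized counts in oidia, against 1318 and 1389 in hyphae, a ratio of 19.2. CC1G_08637 had 25185 and 23864 in oidia, against 497 and 525 in hyphae, a ratio of 48.0. The 2 genes were alike in oidia and differed in hyphae, where CC1G_02260 was higher. Both lie in orphan regions, on chromosome 3 from 2948496 to 2950091 for CC1G_02260 and on chromosome 1 from 1029265 to 1033051 for CC1G_08637. CC1G_03607 had 23842 and 24298 in oidia, against 376 and 401 in hyphae, a ratio of 61.9. CC1G_00086 had 18085 and 17218 in oidia, against 507 and 530 in hyphae, a ratio of 34.1. CC1G_04835 had 14470 and 14602 in oidia, against 282 and 281 in hyphae, a ratio of 51.7. Replicates of a stage were close in these genes, and their oidia levels were in the order given. CC1G_03496 completed the leading 10 with 12669 and 13047 in oidia, against 518 and 527 in hyphae, a ratio of 24.6. The regions of these last 4 genes are orthologous.

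**Figure D2:**
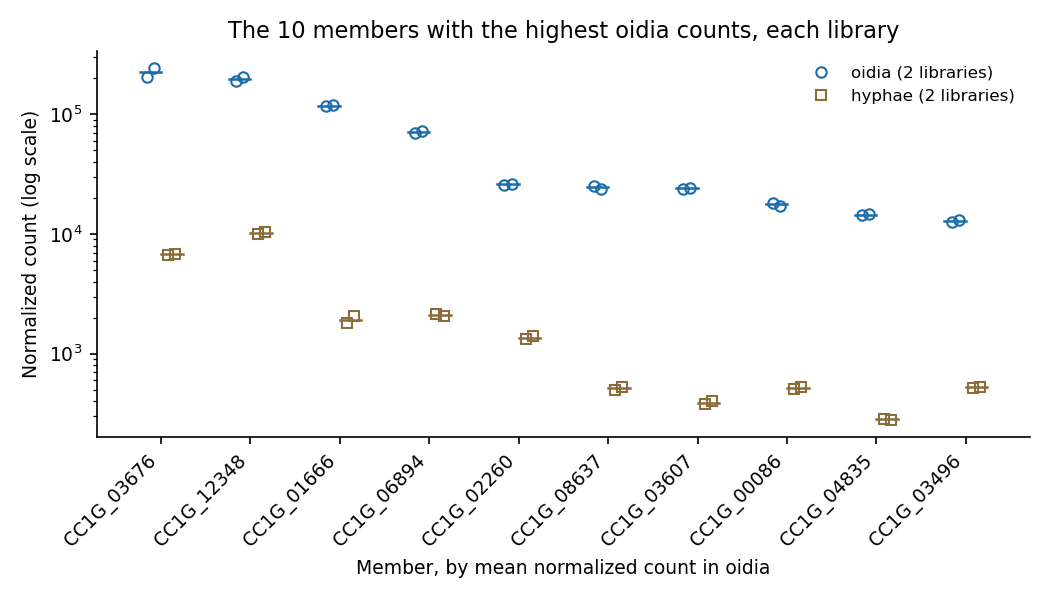
Normalized counts (y axis, log scale) of the 10 members with the highest mean in oidia, with 2 oidia libraries and 2 hyphal libraries shown as separate points for each gene and the stage mean as a bar. Oidia points lie above hyphal points in each gene, and the points of a stage lie close together. They are furthest apart for CC1G_03676 in oidia, at 205964 and 242894, with a smaller gap for CC1G_01666 in hyphae.

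Counts favour long genes, so levels between genes were also compared per kb of coding span, with the reads of the coding-span row of the table. On that scale CC1G_03676 led with 210568 normalized reads per kb in oidia and 6477 in hyphae. CC1G_12348 followed with 79967 in oidia and 3766 in hyphae, and CC1G_01666 with 51252 in oidia and 786 in hyphae. The order of the leading 4 was the same as by counts. Behind them short members came forward. CC1G_00610, with a span of 690 bases, had 17296 normalized reads per kb in oidia and 372 in hyphae. CC1G_04070, with 488 bases, had 15057 in oidia and 603 in hyphae, and CC1G_05725, with 347 bases, had 14972 in oidia and 372 in hyphae. These 3 were picked after their values were seen. Over all 205 members the median was 929 normalized reads per kb in oidia and 36.3 in hyphae.

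At the other end, hyphal reads were few. In 11 members both hyphal libraries had fewer than 10 reads, and no member had a hyphal library without a read. CC1G_12311 had the lowest hyphal mean, with 161 and 104 reads in oidia against 6 and 3 in hyphae. Its ratio of 53.7 has a 95% exact (Clopper-Pearson) interval of 27.4 to 117. CC1G_05788 had 140 and 118 reads in oidia against 4 and 5 in hyphae, a ratio of 49.7 (26.7 to 114, 95% exact interval). CC1G_14292 had 121 and 110 reads in oidia against 8 and 3 in hyphae, a ratio of 39.8 (20.7 to 76.6). CC1G_05654 and CC1G_14787 each had 9 and 3 hyphal reads, and their ratios were 38.8 (20.7 to 72.2) and 37.0 (19.6 to 68.4). The upper limits of all 5 lie beyond 64, so these counts do not place the genes within the fold range. The reads carried no molecular identifiers, so intervals of this kind reflect counting error and nothing else.

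Counting error left most members within the range. The interval of the ratio lay wholly between 16 and 64 for 135 members. It reached below 16 for 45 and up to 64 or beyond for 25. Just inside the lower limit were CC1G_11406 at 16.03, CC1G_09017 at 16.1 and CC1G_00788 at 16.2. Just outside it were CC1G_00807 at 15.99, CC1G_04409 at 15.9 and CC1G_06716 at 15.8. Just inside the upper limit were CC1G_04405 at 63.97, CC1G_13192 at 63.6 and CC1G_09228 at 63.3, and just outside it CC1G_03124 at 65.5, CC1G_01738 at 66.9 and CC1G_04581 at 67.2. Genes on both sides of a limit thus had nearly the same ratios. A further 91 genes had a ratio in the range but fewer than 100 reads in an oidia library.

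The ratios at the limits rested on quite different read numbers. CC1G_04405 had 1619 and 1212 reads in oidia against 41 and 37 in hyphae, an interval of 52.0 to 82.7. CC1G_13192 had 5205 and 4067 reads in oidia against 153 and 109 in hyphae, an interval of 56.2 to 72.1. CC1G_09228 had 569 and 496 in oidia against 20 and 11 in hyphae, an interval of 43.2 to 91.2. All 3 intervals hold the limit of 64. At the lower limit CC1G_00788 had 9431 and 7272 reads in oidia against 1027 and 814 in hyphae, an interval of 15.5 to 17.1. CC1G_05092 had 452 and 399 in oidia against 49 and 44 in hyphae, a ratio of 16.3 with an interval of 13.2 to 20.6. CC1G_14117 had 132 and 103 in oidia against 11 and 14 in hyphae, a ratio of 16.2 with an interval of 11.1 to 26.6. These intervals hold the limit of 16, and they widen as hyphal reads become fewer.

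Replicates agreed closely for most members. The absolute log2 difference between the oidia libraries had a median of 0.0809 and a maximum of 0.577, and no member differed by over 1.5-fold. Oidia replicate 1 was the higher library in 110 of 205 members. The hyphal libraries had a median absolute difference of 0.161 and a maximum of 1.56. CC1G_02815 had the largest oidia difference, with 250 normalized counts in replicate 1 and 372 in replicate 2, against 5.12 and 11.2 in hyphae. CC1G_03989 had 1059 and 1409 in oidia, against 53.1 and 54.9 in hyphae. In both genes oidia replicate 2 was higher. CC1G_09841 differed the other way, with 271 and 205 in oidia, against 9.60 and 11.2 in hyphae. Among members with at least 10 reads in both hyphal libraries, the largest hyphal differences were those of CC1G_14117, CC1G_11327 and CC1G_09263, at -0.77, -0.77 and -0.69 (log2 of replicate 1 over replicate 2). CC1G_11327 had 627 and 657 in oidia, against 9.60 and 16.3 in hyphae. In each of these genes the oidia libraries stayed far above the hyphal ones.

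The table lists gene regions as orthologous, paralogous or orphan. These class names are its own, how they were assigned is not stated in the labels, and the rule did not use them. All 205 members could be tied to such a region by position. Of these, 112 were orthologous (54.6%), 42 paralogous (20.5%) and 51 orphan (24.9%). Among all 3683 tied genes with the same oidia minimum, 70.9% were orthologous, 9.67% paralogous and 19.4% orphan. Over all 13228 tied genes of any level the shares were 44.1%, 28.1% and 27.8%. The orthologous share of the members was thus lower, and their paralogous share higher, than among genes of the same oidia minimum. The difference was not tested.

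The shares moved in steps with the fold. Orthologous regions made up 54.6% of the members, 35.5% of the 93 genes at least 64-fold higher in oidia, 64.9% of the 790 genes 4- to 16-fold higher, and 75.3% of the genes under 4-fold or not higher in oidia. Paralogous regions made up 20.5% of the members, 28.0% of the genes at least 64-fold higher, 11.4% of those 4- to 16-fold higher and 7.63% of the rest. Genes 16- to 64-fold higher in hyphae, with at least 100 reads in both hyphal libraries, had shares near those of the members, with 50.7% orthologous, 24.2% paralogous and 25.1% orphan among 211 genes. No source used here says how the counter treated reads with several matches, so the values of single paralogous members are uncertain.

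**Figure D3:**
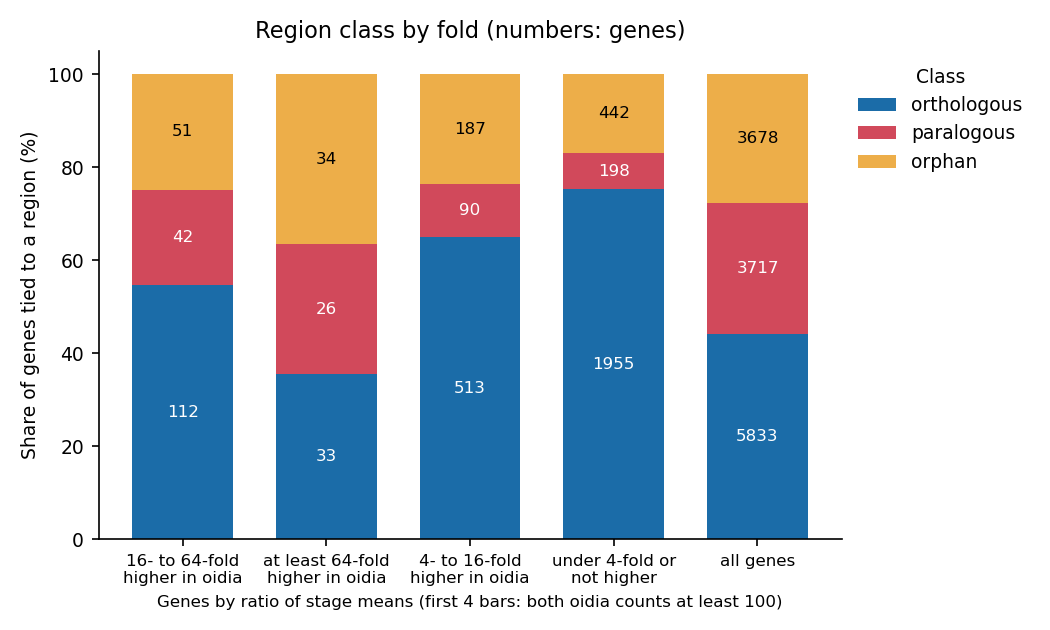
Share of genes (y axis, %) in orthologous, paralogous and orphan regions, for the members, for 3 other ranges of the oidia over hyphae ratio with the same oidia minimum, and for all genes, with gene numbers inside the bars. The orthologous share of the members, 54.6%, lies between the 35.5% of genes at least 64-fold higher in oidia and the 64.9% of genes 4- to 16-fold higher.

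The 3 classes of members had different median levels. Orthologous members had a median normalized count of 2556 in oidia and 93.8 in hyphae. Orphan members had medians of 972 in oidia and 31.8 in hyphae, and paralogous members 597 in oidia and 24.7 in hyphae. The median ratios were 25.9 for orthologous, 28.1 for orphan and 26.8 for paralogous members, and the rule confines these ratios to 16 to 64. Per kb of coding span the medians were 1522 for orthologous, 511 for orphan and 460 for paralogous members in oidia, and 55.2, 17.9 and 14.1 in hyphae. Orthologous members held 67.8% of the members' oidia reads and 60.5% of their hyphal reads, orphan members 26.0% and 33.3%, and paralogous members 6.23% and 6.25%. The shares of reads rest largely on the 4 most abundant members, which held 50% of the members' oidia reads and 48.5% of their hyphal reads. Of those, CC1G_12348 is an orphan member, and CC1G_03676, CC1G_01666 and CC1G_06894 are orthologous. The highest paralogous member was CC1G_01568, at 11785 in oidia and 662 in hyphae, picked after its values were seen.

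Coding spans of the members ran from 246 to 10737 bases, introns included. Their median of 1554 bases lay between 1125 bases for genes at least 64-fold higher in oidia and 1926 bases for genes 4- to 16-fold higher. Genes of the same oidia minimum had a median of 1799 bases, and genes 16- to 64-fold higher in hyphae 1315 bases. Median spans were 1611 bases in orthologous, 1541.5 in paralogous and 1432 in orphan members.

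The members lay on all 13 chromosomes. Chromosome 5 had the most, 30, and chromosome 6 the fewest, 4. Per gene with the same oidia minimum, the shares were highest on chromosome 12, with 16 of 162 (9.88%), and chromosome 9, with 17 of 182 (9.34%). They were lowest on chromosome 6, with 4 of 144 (2.78%), and chromosome 1, with 20 of 564 (3.55%). Within 100 kb of a chromosome's start or of its last listed region lay 8 members (3.90%), against 3.39% of genes with the same oidia minimum and 6.86% of all tied genes. Among transposon, repeat and centromere rows of the table, a centromere interval was the only kind that overlapped a member's coding span, that of CC1G_00014.

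Some members stood next to each other. The next gene on at least 1 side was a member for 20 of 205 members (9.76%), and for 405 of all 13231 placed genes (3.06%). The 20 formed 10 pairs, and no run was longer than 2. The coding spans of a pair did not overlap in any case, and lay between 78 and 1239 bases apart. The excess over the share of all placed genes was not tested.

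Partners of a pair had similar folds in some cases and different levels in most. CC1G_06893 and CC1G_06894 on chromosome 3 had ratios of 38.9 and 33.8, at 1708 and 71308 normalized counts in oidia and 43.9 and 2107 in hyphae. CC1G_09026 and CC1G_09027 on chromosome 7 had ratios of 33.1 and 33.3, at 786 and 1339 in oidia and 23.8 and 40.2 in hyphae. CC1G_15173 and CC1G_07687 on chromosome 9, 78 bases apart, had ratios of 22.0 and 25.9, at 2388 and 3409 in oidia and 109 and 131 in hyphae. In these 3 pairs the ratios were close. CC1G_12397 and CC1G_12398 on chromosome 4 had ratios of 32.3 and 22.2, at 145 and 8625 in oidia and 4.49 and 388 in hyphae. CC1G_12398 was itself next to CC1G_12399, a gene 128-fold higher in oidia, at 8518 in oidia and 66.3 in hyphae. CC1G_06813 and CC1G_06814 on chromosome 3 had 19.1 and 34.2, and CC1G_15356 and CC1G_10850 on chromosome 10 had 21.4 and 16.9. CC1G_11094 and CC1G_11093 on chromosome 5 were the only pair in which both regions are paralogous, with ratios of 23.8 and 19.2. CC1G_11328 and CC1G_11327 on chromosome 11 differed most, at 17.3 and 49.5. On chromosome 12, CC1G_05787 and CC1G_05788 had 18.7 and 49.7, and CC1G_05832 and CC1G_05833 had 23.9 and 28.7.

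Genes next to members that were not members themselves had higher fold changes than the typical gene, as a description. There were 385 such genes, of which 312 had enough reads for the edgeR fit. Their median log2 fold change was 0.89 (oidia over hyphae), where that of all 9866 genes tested was -0.25. Of the 312, 185 passed as higher in oidia at an adjusted p under 0.05 (59.3%, where 37.8% of all genes tested did), and 80 as lower (25.6%, where 45.2% did). At least 4-fold higher in oidia were 87 (27.9%, where 14.7% of all genes tested were). For the 78 tested neighbours with at least 1000 bases between the coding spans, the median was 0.62 and 56.4% passed as higher in oidia. Of the same 78, 20.5% were at least 4-fold higher in oidia and 33.3% passed as lower. The median was thus above that of all genes tested in these more distant neighbours too, while these 2 shares were closer to those of all genes tested. Shares of this kind rest on the same libraries as the rule and carry no test of their own.

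**Figure D4:**
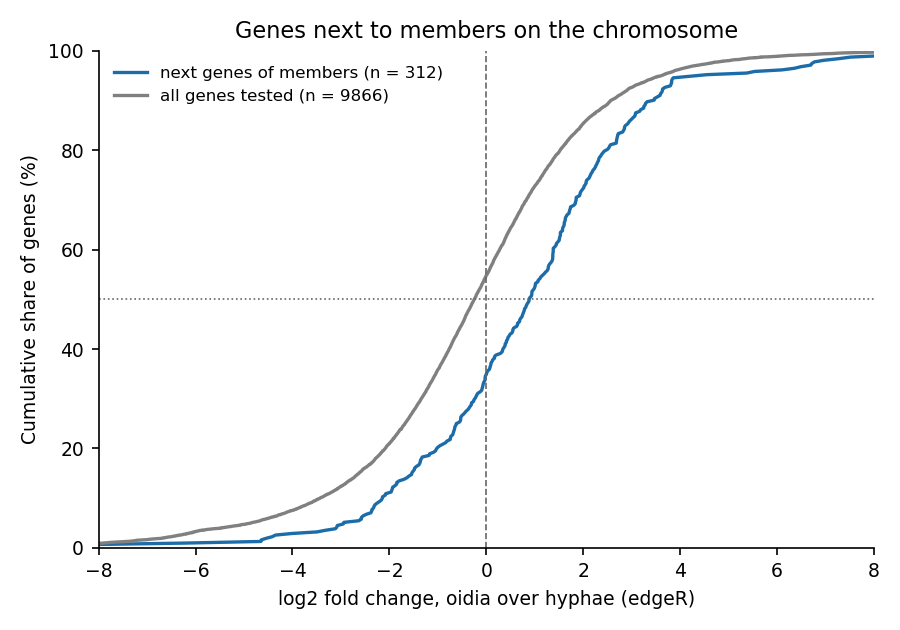
Cumulative share (y axis, %) of the log2 fold change, oidia over hyphae, from edgeR (x axis) for 312 tested genes next to a member that are not members, and for all 9866 genes tested. The curve of the neighbours lies to the right, with a median of 0.89 against -0.25.

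The neighbours of other sets are given for comparison, with no test. Around genes at least 64-fold higher in oidia the 136 tested neighbours outside that set had a median log2 fold change of 1.03, around genes 4- to 16-fold higher it was 0.09 over 1151, and around genes 16- to 64-fold higher in hyphae it was -0.81 over 333. At least 4-fold higher in oidia were 38.2% of the neighbours of genes at least 64-fold higher and 12.8% of those of genes 4- to 16-fold higher. Neighbours within the same set were left out of these shares and of the medians that follow. Among neighbours with at least 1000 bases between the spans, the median was 1.54 over 34 genes around genes at least 64-fold higher, -0.14 over 286 around genes 4- to 16-fold higher, and -0.89 over 106 around genes 16- to 64-fold higher in hyphae. The values around the 4- to 16-fold set were near those of all genes tested only with neighbours within that set left out. With those neighbours kept, the median was 0.40 over 1305 genes. At least 4-fold higher in oidia were then 22.8%, where 14.7% of all genes tested were. With neighbours of the same set kept, the median was 1.04 around the members, with 32.2% at least 4-fold higher. It was 1.40 with 44.7% around genes at least 64-fold higher in oidia, and -1.13 with 6.48% around genes 16- to 64-fold higher in hyphae. Of the members, 13 stood next to a gene at least 64-fold higher in oidia (6.34%), 47 next to a gene 4- to 16-fold higher with the same oidia minimum (22.9%), and 33 next to a gene that passed as at least 4-fold lower in oidia (16.1%). Of all 13231 placed genes, members included, 1.40% stood next to a gene at least 64-fold higher in oidia, 11.6% next to a gene 4- to 16-fold higher and 28.4% next to a gene at least 4-fold lower. Genes at least 4-fold lower in oidia were themselves 21.0% of the 9866 genes tested. These shares were not tested against each other. The most abundant of the 64-fold neighbours, picked after their values were seen, was CC1G_07866, next to the member CC1G_07865, at 107708 in oidia and 239 in hyphae. CC1G_15006, next to the member CC1G_02926, was at 100043 in oidia and 532 in hyphae.

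The table counts each coding span a second time as a region row. How reads were assigned to either kind of row is not stated, so a difference between the rows does not locate reads. In 142 of 205 members the region had the ends of the gene except for 3 bases, the length of a stop codon. The interval of a region row includes introns. For the median member the region row held 100% of the reads of the gene row in oidia and in hyphae. It held between 90% and 110% of them in oidia for 185 members (90.2%), against 85.1% of genes with the same oidia minimum. It was under 90% for 13 members and over 110% for 7, and 99 members had more oidia reads on the region row than on the gene row. The ratio of oidia to hyphae on the region rows was 16 to 64 for 192 members, under 16 for 10 and at least 64 for 3. Most of the 13 were close to a limit, such as CC1G_01666, at 65.2 on its region row and 61.1 on its gene row, and CC1G_09017, at 15.4 and 16.1. These rows share most of their reads, so the region rows are no second measurement.

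In some members the 2 rows differed widely. CC1G_11406 had 6008 and 5454 reads in oidia on its gene row, against 668 and 605 in hyphae. On its region row, chromosome 1 from 4064709 to 4065602, it had 216 and 152 in oidia, against 641 and 576 in hyphae. The count of the region row was 3.21% of that of the gene row in oidia and 95.6% in hyphae. The ratio was 0.531 on the region row and 16.03 on the gene row, so the rows differ in direction. Where the oidia reads of CC1G_11406 lay cannot be seen from these counts. CC1G_01865 had 966 and 689 reads in oidia against 44 and 39 in hyphae on its gene row, and 45 and 40 against 27 and 15 on the region it overlapped most. That region is shared with another gene, so its reads need not be those of CC1G_01865. The region row of CC1G_09206 had 49.4% of the count of its gene row in oidia and 52.4% in hyphae, and its ratio was nearly the same on both rows, at 19.1 on the region row and 20.7 on the gene row.

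In other members the region row had the higher count. CC1G_04960 had 952 and 762 reads in oidia against 108 and 75 in hyphae on its gene row, and 2035 and 1652 against 421 and 301 on its region row. Its ratio was 9.19 on the region row and 16.9 on the gene row. The region row of CC1G_01018 had 136.8% of the count of its gene row in oidia and 153.8% in hyphae, with ratios of 15.7 on the region row and 17.6 on the gene row. The genes of this paragraph and the one before it were picked after their values were seen.

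The fold range depends on how the libraries are scaled. With TMM factors the rule found 196 genes, 193 of them members. With upper quartiles it found 192, with 188 members, and with size factors computed over every row it found 204, all of them members. These 3 scalings and the rule's own had 188 members in common. With total counts the rule found 84 genes, of which 22 were members. Under total counts the ratios of the members ran from 5.34 to 21.3 with a median of 8.78, and 183 were under 16-fold. The fold range is thus relative to the scaling. The scalings tried shifted all genes nearly alike and by less than the 16-fold minimum of the rule, so none of them turned the direction of a member. Scalings of other kinds were not tried. With total counts 1547 genes passed as higher and 7407 as lower in oidia, against 3727 and 4455 with TMM.

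**Figure D5:**
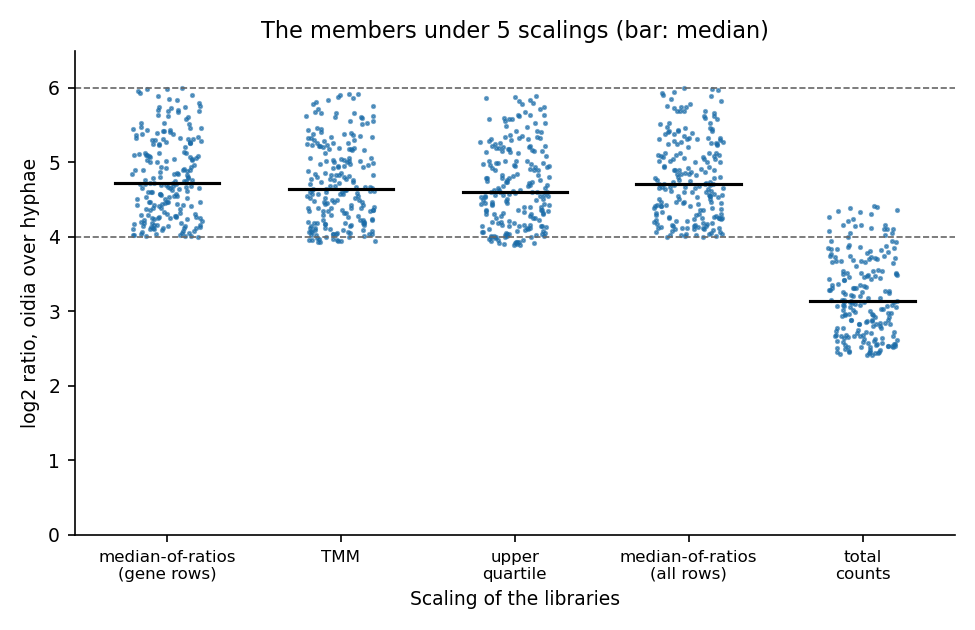
Log2 ratio of oidia over hyphae (y axis) of the 205 members under 5 scalings of the libraries (x axis), each point a gene and the bar the median, with dashed lines at the fold limits of the rule. The median is 4.72 with the rule's own scaling and 3.13 with total counts.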

How the data were processed

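RNA of 2 oidia and 2 hyphal libraries of C. cinerea was analysed, with groups taken from the sample titles. The submitters' processing notes name TopHat, Bowtie 0.12.7 and DESeq. No source used here gives the build, annotation, counter, strand setting or treatment of multiply matching reads. The authors' deposited table holds raw read counts for each gene and element in each library. It also holds a deposited mean signal of each stage (DESeq-normalized counts), a deposited fold ratio, its deposited log2 value, and deposited p-value columns, raw and adjusted. The fold columns carry a description as hyphae over oidia, but their values are oidia over hyphae, so directions were taken from counts.

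Size factors used the 9787 genes with reads in all 4 libraries. edgeR 4.0.16 (R 4.3.3) with TMM factors, filterByExpr and the quasi-likelihood test was run on the deposited counts of all genes, after it was tested on simulated data. Its common biological coefficient of variation was 4.12%, and the approximate SE is the log2 fold change divided by the root of F. Genes were ordered, and tied to the region row of largest overlap, with the RefSeq gene list of assembly CC3, which matched 13340 of 13342 identifiers and held no symbols. Region ends equalled gene ends except for 3 bases at 1 end in 10266 of 13228 tied genes. Coordinates printed are those of the table. Intervals of ratios are exact and conditional on the summed reads.

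Named genes were chosen by rule: the 10 highest oidia counts, the 5 largest and 5 smallest ratios, the 5 lowest and 5 highest hyphal counts, the 3 largest differences between replicates of each stage, up to 5 members of the longest runs and the 3 genes on each side of a fold limit. Other genes named, such as those in pairs, next to a member or with unlike gene and region rows, were picked after their values were seen. The members, lists and tests were chosen with earlier results of these data known. Keyword, protein and promoter lists could not be evaluated, since no product names or sequences were used here. Alternatives were other scalings, filters and tools, a block for replicate number, fits without each library and, added after the data were seen, coding-span rows.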

Additional observations from a re-analysis of the deposited data

How the results depend on the processing

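All 205 members and 38 named genes kept their call under other scalings, the DESeq2 1.42.0 Wald test, the replicate block and without each library. They were chosen for folds near or above 16 in the same libraries, so these fits could hardly have given another outcome. Genes called higher in oidia, 3727 of 9866, numbered 1547 with total counts and 2230 where the mean count had to reach 100, and genes called lower, 4455, numbered 7407 and 2429. Without a library they ranged from 3452 to 3699 and from 3796 to 4370. The rule found 84 genes with total counts and 102 with at least 1000 reads in both oidia libraries, against 205. Without 1 library it found 207 to 233, and 176 members were found each time. The members' median log2 ratio of 4.72 was 4.65 with TMM, 4.61 with upper quartiles, 3.13 with total counts, and 4.66 to 4.79 without a library. Stricter minimums leave fewer genes to count; for the scalings the cause was not tested. With total counts the median log2 fold change of all genes was -1.79 (-0.25 with TMM), so directions are relative to it. The replicate block gave 3642 higher and 4286 lower and changed no call of a member. Replicate numbers did not pair the libraries by label, and deviations of same-numbered libraries had a correlation of 0.000378 over 6162 genes. Promoter windows and protein hydropathy were not run. Few hyphal reads limit the ratio of the members at the lowest hyphal levels.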
